A study of Macaca mulatta with 28 samples.

Results

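Genes that write, erase or read marks on chromatin, or move nucleosomes, were followed in the amygdala of macaques that drank ethanol. Members were the genes whose symbol begins with HDAC, KDM, SETD, DNMT, SMARC, ARID, MLL or EZH, or is a numbered SIRT, TET, CHD or BRD gene, and whose value reached at least 10 normalized reads in at least 5 of 28 libraries. They came to 84 of 15521 genes in the deposited gene table, out of 85 that matched by symbol. The 1 gene left out by the value limit was DNMT3L, whose highest value was 6.10 normalized reads. Just inside the limit were KDM4E, which reached 10 in 20 libraries with a mean of 14.3, and DNMT3B, which did so in 26 with a mean of 17.8. The symbol decides membership, and 2 of its consequences matter: the 5 MLLT genes are known as fusion partners of MLL in leukaemia and were counted apart, and MLLT4 encodes afadin, a protein of cell junctions. KDM4D and KDM4E are near-identical copies, so reads may be split between them and their values are uncertain. DNMT3A, TET1, CHD5, ARID1B and MLL were not analysed here.

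DNA in the nucleus is wound on histones, and access to genes depends on chemical marks on histones and on DNA and on the placement of the nucleosomes. HDAC and SIRT enzymes remove acetyl groups and KDM enzymes remove methyl groups. The SETD, MLL and EZH families include enzymes that add methyl groups to lysines, though not every member does so. DNMT enzymes methylate cytosine and TET enzymes oxidise the methyl group. SMARC and CHD proteins form the core of remodeling complexes driven by ATP. Some ARID proteins, such as ARID1A, are partners in them, though not every ARID member is. BRD proteins bind acetylated histones. In the amygdala, deacetylases and DNA methylation have been studied widely in rodents for a role in drinking and withdrawal.

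The tissue was a dissected block around the central amygdala nucleus (CeA), a hub for stress and reward, from 28 male rhesus macaques, with 1 library of total RNA per animal. All 28 animals drank ethanol of their own accord: about 90 days of induction on 4% (w/v) ethanol preceded more than 12 months in which ethanol was open to them for 22 hours a day, and no animal without ethanol was analysed here. The labels place 10 animals as low drinkers (LD), which met none of the other definitions, and 5 as binge drinkers (BD), whose intake reached 2 g/kg on 55% of days or more and whose blood ethanol reached 80 mg/dl once a year or more. For the 7 heavy drinkers (HD) intake reached 3 g/kg on 20% of days or more. The 6 very heavy drinkers (VHD) averaged above 3 g/kg daily, with intake over 4 g/kg on 10% or more of their open access days. The animals came from 4 cohorts with a mean age at induction of 8.24 years (cohort 4), 5.63 (cohort 5), 4.18 (cohort 7a) and 5.69 (cohort 7b), and of 9.98, 7.15, 5.7 and 7.18 years at the end in the same order. Cohort 4 held 4 LD, 3 BD and 1 HD animal, cohort 5 held 3 HD and 4 VHD, cohort 7a held 3 LD, 1 BD, 2 HD and 2 VHD, and cohort 7b held 3 LD, 1 BD and 1 HD. VHD and HD animals therefore met in cohorts 5 and 7a, and VHD and LD animals in cohort 7a alone.

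Depth ran from 1910514 to 25928489 reads on gene exons per library, and 3 reads corresponded to 1.82 to 24.1 normalized reads. The 3 shallowest libraries were BD replicate 1, LD replicate 1 and HD replicate 1, all of cohort 4. Together they held the lowest or the highest value of 46 of the 84 members, and the share over all genes is not given. Neuronal, astrocyte and oligodendrocyte markers were present in every library, while the CeA peptide gene CRH was low, at 16 to 109 normalized reads. Since the tissue is a block, fewer cells of a type and less RNA per cell cannot be told apart.

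As a set, the members were long, well expressed and steady genes. Their exons summed to a median of 4897.5 bases, against 2773.0 over the 13022 genes that entered the tests, and 43 of 84 were among the longest 20% of genes. The median level was 232 normalized reads per kilobase of exon, against 160 over all tested genes, and 51 members stood above that median. The SD of the log2 value over the 28 animals had a median of 0.22 among members and 0.27 among all tested genes, and it was below the latter in 62 members. In 52 members the highest animal was less than 2 times the lowest, a count for which no share over all genes is given. Spread was not compared at a matched level. The members' median level per gene was 1103 normalized reads, against 439 over all tested genes. The steadiest were KDM1A, a demethylase also known as LSD1 (SD of 0.08 on the log2 scale), and SMARCA5, the ISWI motor (0.09). The most variable were low in level: KDM4E (0.69), DNMT3B (0.56), SETD9 (0.47), EZH2 (0.46), HDAC10 (0.45) and KDM6B (0.44).

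**Figure D1:**
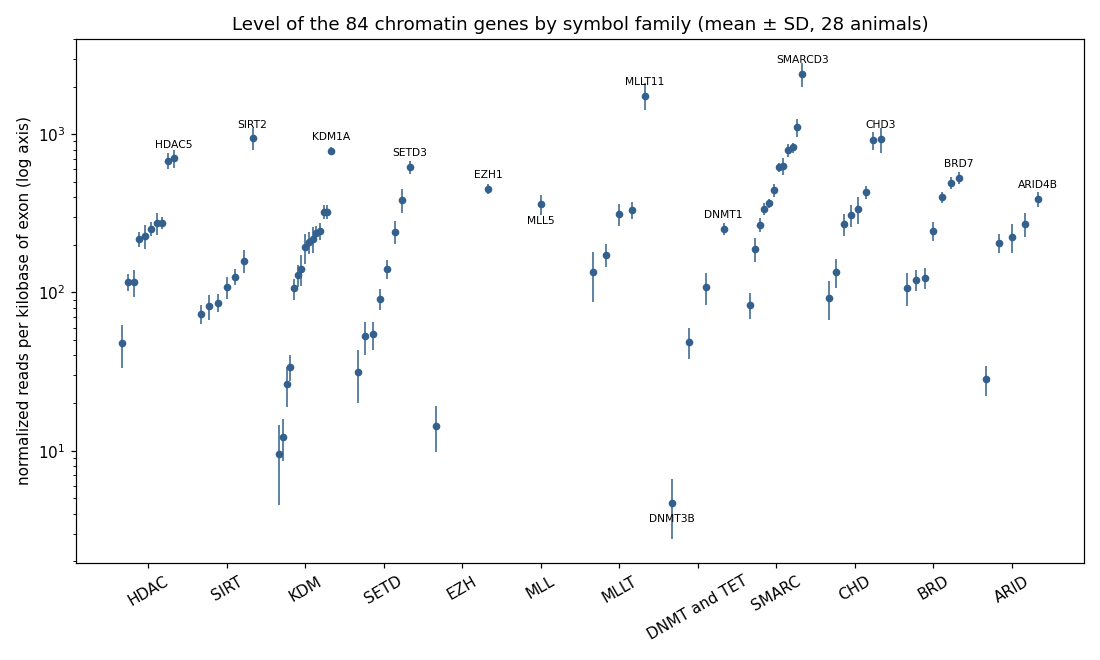
Level of each of the 84 chromatin genes, grouped by symbol family along the x axis and ordered by level within a family; the y axis gives normalized reads per kilobase of exon on a log axis, points are means and bars SDs over 28 animals, with the highest gene of each family and the lowest of all labelled. Levels run from 4.70 for DNMT3B to 2413 for SMARCD3.

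Each family was led by 1 or 2 genes. Among the 10 HDAC genes, HDAC5, a class II enzyme that shuttles between nucleus and cytoplasm in neurons, stood highest at 705 ± 95.1 normalized reads per kilobase (SD, n = 28), and HDAC10 lowest at 47.9 ± 14.5. Class I HDAC2 stood above HDAC1, with a ratio per kilobase of 1.74 to 4.39 and a median of 2.48. Among the 7 sirtuins, SIRT2, a mostly cytoplasmic deacetylase that is abundant in myelin-forming cells, reached 943 ± 154 per kilobase, and the nuclear SIRT6 reached 73.2 ± 9.92. SIRT1, the deacetylase most studied in ageing, stood at 570 ± 94.0 normalized reads per gene. Of the 15 KDM genes, KDM1A led at 789 ± 44.2 per kilobase. KDM6B, which removes the Polycomb mark and is known as an inducible gene, was at 176 ± 49.5 normalized reads per gene, and KDM5B, an H3K4 demethylase, at 1330 ± 213. SETD3, which methylates actin, led the 8 SETD genes at 621 ± 60.1 per kilobase, and SETD9 was lowest at 31.7 ± 11.6.

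Members of the same complex that stand in for each other ranged from far apart in level to nearly equal. EZH1 and EZH2 are the alternative catalytic subunits of Polycomb repressive complex 2, and EZH2 is best known from dividing cells. EZH1 stood 14.5 to 64.0 times above EZH2 per kilobase, with a median of 29.4. In the SWI/SNF complex, known as BAF, the postmitotic subunit SMARCD3 stood 7.26 to 24.2 times above SMARCD1 (median 13.3), and SMARCC2 stood 2.72 to 3.85 times above SMARCC1 (median 2.99). The 2 alternative motors were closer: SMARCA2 exceeded SMARCA4 in all 28 libraries, by 1.16 to 2.74 times with a median of 1.71. The NuRD motors CHD3 and CHD4 were nearest to each other, with a median ratio of 0.97 and CHD3 the higher in 13 libraries.

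The cytosine enzymes formed a steep series per kilobase. The maintenance methyltransferase DNMT1 stood at 252 ± 22.2 normalized reads per kilobase, and the de novo enzyme DNMT3B at 4.70 ± 1.94. TET2 exceeded TET3 in all 28 libraries, with a median ratio of 2.23. Among readers, BRD7 led at 530 ± 48.0 per kilobase. ARID4B led the ARID genes at 389 ± 43.7 per kilobase, and ARID1A, a defining BAF subunit, stood at 1827 ± 377 normalized reads per gene. The only MLL gene measured, MLL5 (also known as KMT2E), was at 361 ± 51.3 per kilobase. Among the fusion partners, MLLT11 was highest at 1755 ± 341 per kilobase.

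No chromatin gene passed the threshold in any comparison of drinking categories or of cohorts by limma (adjusted p under 0.05 over 13022 genes), and neither did any other gene: the share of genes called was 0% in each of the 8 comparisons. The intervals limit how large a difference could have gone unseen. For heavy (HD and VHD, 13 animals) against low drinkers (LD and BD, 15 animals), the 95% interval of all 84 members lay within 2-fold in either direction, and that of 75 within 1.5-fold. For VHD against LD, 80 lay within 2-fold and 63 within 1.5-fold. Cohort 5 held no LD or BD animals. With cohort as a term, its 3 HD and 4 VHD animals thus inform the spread but not the heavy minus low difference. That difference rests on cohorts 4, 7a and 7b, whose heavy drinkers were 1 HD, 2 HD with 2 VHD, and 1 HD animal in that order. On simulated reads for heavy against low drinkers over 13022 genes, the same test called 81% of 2-fold and 57% of 1.5-fold changes. The simulated reads held no differences between cohorts and no variation shared between genes, so these rates need not hold for the real blocks.

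At an unadjusted p under 0.05, by limma, the members numbered 13 of 84 for VHD against HD (15.5%; all genes 15.6%), 7 for VHD against LD (8.33%; 8.57%), 3 for HD against LD (3.57%; 3.96%) and 2 for BD against LD (2.38%; 3.52%). For the trend over LD, BD, HD and VHD in that order they numbered 3 (3.57%; 4.85%). For heavy against low drinkers they numbered 6 (7.14%; 4.18%), and for cohort 4 against cohort 7a 14 (16.7%; 9.39%). By edgeR, from 1 member for BD against LD (1.19%, all genes 2.42%) to 15 for cohort 4 against cohort 7a (17.9%, 10.1%) reached that unadjusted level. None was called by edgeR in the 8 comparisons. Calls of members by DESeq2 came in VHD against HD alone.

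These counts depended on the fit and on single libraries. With the mean scores of astrocyte, oligodendrocyte and striatal markers as terms they were 21 for heavy against low drinkers (25%, all genes 10.6%). In that fit they were 21 for HD against LD (25%, all genes 7.63%), 4 for VHD against HD (4.76%, 5.59%) and 1 for VHD against LD (1.19%, 6.24%). The counts there were 9 for the trend (10.7%, all genes 6.41%), 5 for BD against LD (5.95%, 6.87%) and 21 for cohort 4 against 7a (25%, 15.2%). Without the 3 shallowest libraries they were 0 for heavy against low drinkers and 8 for cohort 4 against 7a. Without HD replicate 1 alone these were 0 and 4, and without LD replicate 1 they were 12 and 9. For heavy against low drinkers the count was also 3 without LD replicate 7 and 13 without HD replicate 5. The count for VHD against HD was 6 without VHD replicate 5 and 8 without HD replicate 3. For VHD against LD it was 11 without LD replicate 1 or VHD replicate 6 and 4 without HD replicate 1, HD replicate 4, HD replicate 7 or VHD replicate 5. Leaving out 1 library gave 0 (HD replicate 1 or LD replicate 7) to 13 (LD replicate 1) for HD against LD, 2 to 10 (LD replicate 1) for the trend and 1 to 3 for BD against LD. For fits with libraries left out, here and below, no share over all genes is given. A shift of the members alone cannot be told there from one of all genes.

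In heavy against low drinkers, 63 of 84 members had a higher fitted level, where 50% of all genes did. The members' median log2 difference was 0.07, that of all genes 0.00, and that of the longest 20% of all genes 0.06. All 8 CHD, 5 ARID, 5 MLLT and 4 DNMT and TET genes were on the higher side, 13 of 15 KDM genes were, and 5 of 7 SIRT genes were on the lower side. Without the 3 shallowest libraries the count on the higher side was 53 and the median 0.03, and in cohort 7a alone the count was 43 and the median 0.00. Cell type markers differed in the same comparison, none with an adjusted p under 0.05. All 3 GABAergic markers were lower, GAD2 and SLC32A1 with an unadjusted p under 0.05, at a median log2 difference of -0.54. The 4 cortical glutamatergic markers tested were higher, at a median of 0.86, and the 3 cholinergic markers lower, at -1.26, with no unadjusted p under 0.05. The part of these markers in the members' direction was not tested. The fit with 3 marker scores (astrocyte, oligodendrocyte and striatal) holds none of these marker types. In that fit 65 members were on the higher side with a median of 0.11.

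TET3 had the highest of the members' fitted folds that reached an unadjusted p under 0.05 here. Heavy drinkers ranged from 455 to 787 normalized reads with a median of 527, and low drinkers from 354 to 857 with a median of 491. The groups overlapped throughout, with 7 of 13 heavy animals above the low drinkers' mean, and the highest animal of all was the low drinker LD replicate 1. With cohort as a term the fitted fold was 1.27 (95% interval 1.03 to 1.57; limma adjusted p = 0.998). The heavy minus low difference on the log2 scale was 0.65 in cohort 4, where HD replicate 1 is the only heavy animal, 0.31 in cohort 7a and 0.11 in cohort 7b.

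The remodelers CHD1 and CHD9 and the SET protein SETD5 were highest in the same 2 animals, 1 from each group. For CHD9, heavy drinkers ranged from 3331 to 6494 normalized reads with a median of 3909, and low drinkers from 3254 to 6120 with a median of 3690. The highest values of the 2 groups were HD replicate 1 and LD replicate 1, and the next highest animal was at 4930. The fitted fold of CHD9 was 1.20 (1.02 to 1.41) in all animals and 1.08 without the 3 shallowest libraries. CHD1 was at 1457 and 1409 in HD replicate 1 and LD replicate 1 and at most 950.2 elsewhere, and SETD5 at 2240 and 2502 and at most 1859 elsewhere. The fitted fold of CHD1, which binds trimethylated H3K4, was 1.21 (1.02 to 1.44) and 1.09, and that of SETD5 was 1.19 (1.01 to 1.40) and 1.11. The limma adjusted p of these 3 genes was 0.998.

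SIRT6, a nuclear sirtuin tied to DNA repair, was the member on the lower side with the smallest p. Heavy drinkers ranged from 91.7 to 142 normalized reads with a median of 112, and low drinkers from 99.4 to 148 with a median of 128. Only 2 of 13 heavy animals stood above the low drinkers' mean, and the groups overlapped. The fitted fold was 0.829 (0.717 to 0.959; limma adjusted p = 0.998), with log2 differences of -0.42, -0.21 and -0.26 in cohorts 4, 7a and 7b and a fold of 0.857 without the 3 shallowest libraries. HDAC11, the class IV deacetylase, had a fold of 0.891 (0.791 to 1.0), the BAF core subunit SMARCB1 0.926 (0.835 to 1.03) and SETD9 0.773 (0.544 to 1.10), and the interval of each reached 1.

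**Figure D2:**
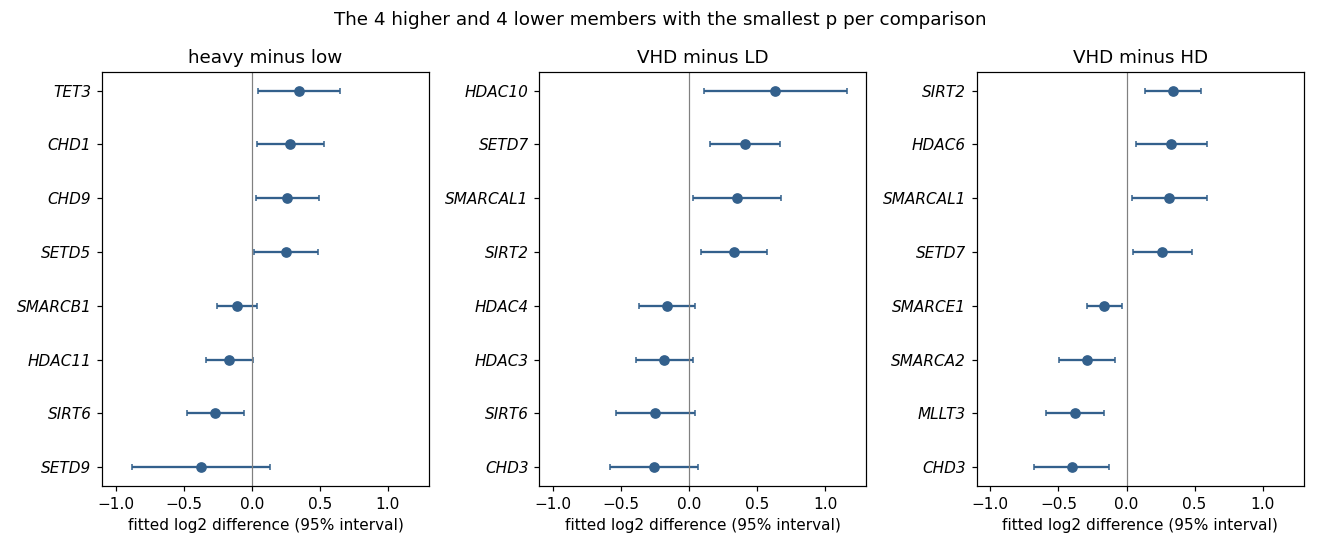
Fitted log2 differences of the 4 members with the smallest p in each direction for heavy minus low drinkers, VHD minus LD and VHD minus HD; points are limma estimates with cohort as a term and bars 95% intervals. The intervals of the higher members exclude 0 in all 3 panels, and no member has an adjusted p under 0.05.

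VHD and HD animals, which met in cohorts 5 and 7a, showed the smallest adjusted p-values among drinking categories, with the lowest member at 0.111. MLLT3, known as AF9, is a reader of acylated histones in the super elongation complex. HD animals ranged from 1111 to 1350 normalized reads with a median of 1175, and VHD animals from 807 to 1102 with a median of 887. Every VHD animal was below every HD animal, which held for no other member and for 0.33% of all genes. That share covers only the direction MLLT3 showed. Genes with every VHD animal above every HD animal were not counted over all genes. The fitted fold was 0.769 (0.664 to 0.890; limma adjusted p = 0.111), and the log2 difference was -0.38 in cohort 5 and -0.42 in cohort 7a. LD animals (818 to 1324) and BD animals overlapped both groups.

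SIRT2 stood on the other side. VHD animals ranged from 1298 to 1963 normalized reads with a median of 1696, and HD animals from 1186 to 1432 with a median of 1308. Only VHD replicate 1, at 1298, lay inside the HD range. The fitted fold was 1.27 (1.10 to 1.46; limma adjusted p = 0.118), with log2 differences of 0.38 in cohort 5 and 0.35 in cohort 7a. The BD animals had 1732, 1465, 1648, 1482 and 1500 normalized reads, and LD animals 1095 to 1669 with a median of 1267. SIRT2 was the BD against LD member with the smallest p, at a fold of 1.21 (1.06 to 1.39; limma adjusted p = 1.0). All 9 oligodendrocyte markers were also higher in BD than in LD animals, at a median log2 difference of 0.30. None of the 9 had an unadjusted p under 0.05.

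DESeq2 on recovered reads called MLLT3 (adjusted p = 0.0265) and SIRT2 (adjusted p = 0.0439) among 413 genes, and edgeR's quasi-likelihood test called none of 13022 genes. Calls by limma also appeared when a single VHD animal was left out. Without VHD replicate 1 it called 259 genes, among them SIRT2 (adjusted p = 0.0389), MLLT3 (0.0407) and HDAC6 (0.0488). Without VHD replicate 6 it called 448 genes, among them CHD3 (0.0287) and MLLT3 (0.0393).

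**Figure D3:**
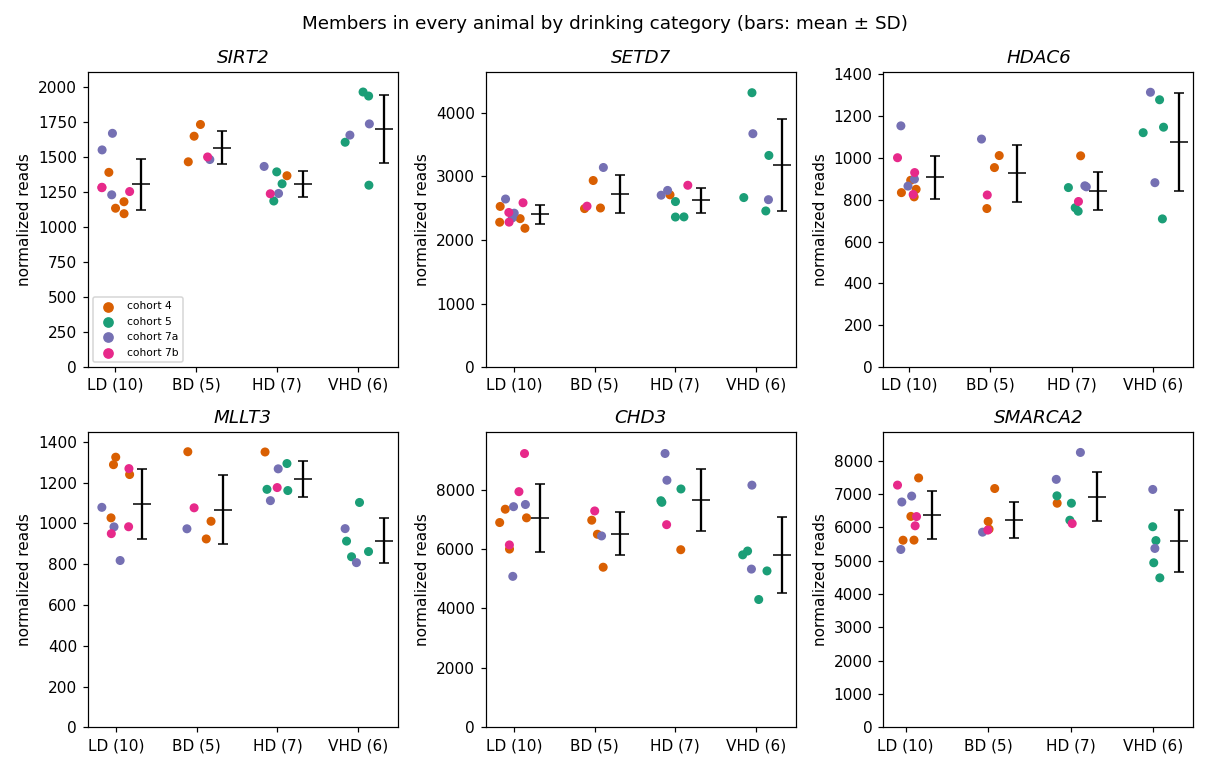
Normalized reads of SIRT2, SETD7, HDAC6, MLLT3, CHD3 and SMARCA2 in each of 28 animals by drinking category, with the number of animals in brackets on the x axis; colour gives the cohort and bars the mean ± SD. The 6 VHD animals lie at 807 to 1102 for MLLT3, all below the 7 HD animals.

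Of the remodeler motors, CHD3 and SMARCA2 were the members on the lower side, beside MLLT3, with the smallest p, while the paralogs CHD4 and SMARCA4 had folds of 0.999 and 0.993 and SMARCAL1 was on the higher side. CHD3 ranged from 4301 to 8147 normalized reads with a median of 5564 in VHD animals and from 5976 to 9213 with a median of 7624 in HD animals. VHD replicate 6 was the highest VHD animal and the only one inside the HD range. The fitted fold of CHD3 was 0.756 (0.626 to 0.914; limma adjusted p = 0.149). SMARCA2, the BAF motor also known as BRM, ranged from 4488 to 7142 (median 5489) in VHD and from 6117 to 8252 (median 6729) in HD animals, again with VHD replicate 6 the only VHD animal inside the HD range. Its fold was 0.818 (0.709 to 0.943; limma adjusted p = 0.160), and the BAF subunit SMARCE1 had 0.893 (0.818 to 0.975; limma adjusted p = 0.196).

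On the higher side in VHD animals were 3 further named members. HDAC6, the tubulin deacetylase of the cytoplasm, ranged from 709 to 1314 normalized reads (median 1134) in VHD and from 745 to 1010 (median 858) in HD animals. VHD replicate 1 was the lowest of all these animals, and 4 VHD animals exceeded every HD animal. The fitted fold of HDAC6 was 1.26 (1.05 to 1.50; limma adjusted p = 0.202). SETD7, a lysine methyltransferase with histone and other targets, had a fold of 1.20 (1.03 to 1.39; limma adjusted p = 0.222), and SMARCAL1, an annealing helicase that protects replication forks, 1.24 (1.03 to 1.51; limma adjusted p = 0.248). In cohort 5 alone, the 4 VHD and 3 HD animals did not overlap in 15 members (17.9%), where 13.4% of all genes did so. A test of whether the VHD minus HD difference itself differed between cohorts 5 and 7a called none of 13022 genes by limma, and 5 members had an unadjusted p under 0.05 (5.95%; all genes 6.92%).

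Cell type markers differed along with the VHD against HD comparison, none with an adjusted p under 0.05. Of 9 oligodendrocyte markers, 9 were higher in VHD animals and 7 had an unadjusted p under 0.05, with a median log2 difference of 0.61. The summed oligodendrocyte level ran from 66318 to 125973 normalized reads in VHD and from 47659 to 78671 in HD animals. All 3 cholinergic markers were higher with an unadjusted p under 0.05 and a median log2 difference of 3.51, with sums of 108 to 14178 in VHD and 27.1 to 1218 in HD animals, and CHAT was listed at 0 in 2 libraries. Of 8 astrocyte markers, 7 were higher and 1 lower. AQP4, GFAP and SLC1A2 had an unadjusted p under 0.05, 2 of them higher and 1 lower. Of the 5 CeA genes 4 were lower, CRH and PRKCD with an unadjusted p under 0.05, and 1 was higher. With the mean scores of astrocyte, oligodendrocyte and striatal markers as terms in the fit, the VHD against HD fold was 1.11 for SIRT2, 0.942 for MLLT3, 0.947 for CHD3, 0.956 for SMARCA2, 0.996 for HDAC6 and 1.0 for SETD7. SMARCAL1 had a fold of 1.33 in that fit.

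SIRT2 was set beside MBP, which encodes myelin basic protein, across the 28 animals. On the log2 scale Pearson's r was 0.662 (permutation p = 0.00012, adjusted over 4 relations 0.00048) and Spearman's rho was 0.558 (permutation p = 0.00229, adjusted 0.00916). Without the 2 animals farthest from the median MBP value r was 0.489, and it was 0.468 within cohort 4, 0.940 within cohort 5 and 0.382 within cohort 7a, where 8, 7 and 8 animals give low precision; cohort 7b held too few animals. The other 3 relations joined paralogs. For HDAC1 with HDAC2, r was -0.01 and rho -0.12. For EZH1 with EZH2, r was -0.10 and rho -0.04. For SMARCA2 with SMARCA4, r was -0.05 and rho 0.01, and the adjusted permutation p was 0.961 for r and 0.946 for rho in all 3. Without the 2 farthest animals these r were 0.05, -0.05 and -0.11.

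**Figure D4:**
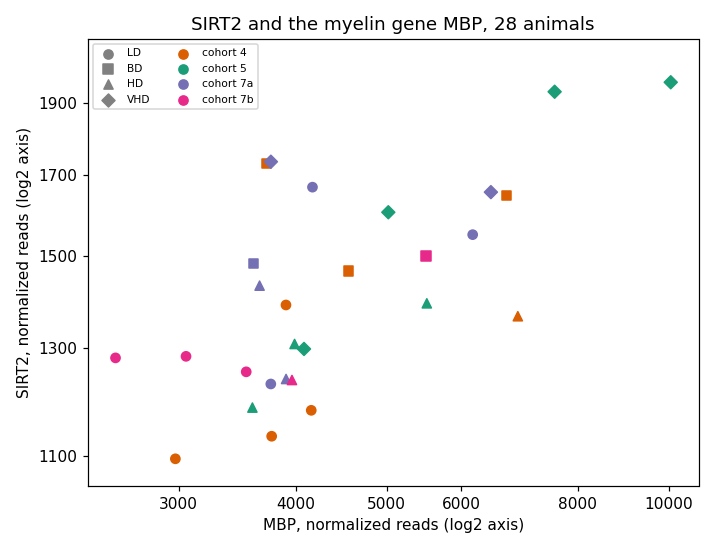
SIRT2 against MBP in 28 animals, both in normalized reads on log2 axes; shape gives the drinking category and colour the cohort. The 2 animals with the highest SIRT2, at 1935 and 1963 normalized reads, are VHD animals of cohort 5 with the highest MBP.

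VHD against LD, the extremes of intake, met only in cohort 7a, so the fit leans on the other cohorts through HD and BD animals. SETD7 was the member with the smallest p. VHD animals ranged from 2456 to 4315 normalized reads with a median of 2998, and LD animals from 2184 to 2644 with a median of 2384. All 6 VHD animals exceeded the LD mean, and 4 exceeded every LD animal. The fitted fold was 1.33 (1.11 to 1.59; limma adjusted p = 0.522), with a log2 difference of 0.33 inside cohort 7a, and 1.15 with the 3 marker scores as terms. HDAC10, a polyamine deacetylase, ranged from 132 to 206 in VHD and from 50.8 to 146 in LD animals, with a fold of 1.55 (1.08 to 2.23; limma adjusted p = 0.542).

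SIRT2 (fold 1.26, 1.06 to 1.49) and SMARCAL1 (1.28, 1.02 to 1.60) were also on the higher side in VHD against LD, with limma adjusted p-values of 0.531 and 0.583. On the lower side, the NCoR deacetylase HDAC3 had a fold of 0.881 (0.763 to 1.02), SIRT6 0.842 (0.689 to 1.03), CHD3 0.834 (0.667 to 1.04) and HDAC4 0.893 (0.775 to 1.03), and the 4 intervals include 1. Inside cohort 7a the log2 difference of CHD3 was 0.01. These folds share the VHD animals with those against HD. VHD animals exceeded LD animals in all 9 oligodendrocyte markers, at a median log2 difference of 0.45, and the GABAergic markers GAD1, GAD2 and SLC32A1 were all lower with an unadjusted p under 0.05 and a median of -0.81.

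HD against LD and BD against LD gave 4 named members each. In HD animals MLLT3 had a fold of 1.16 (1.01 to 1.34) and TET3 1.26 (0.998 to 1.58), while SIRT6 had 0.827 (0.701 to 0.976) and HDAC11 0.879 (0.775 to 0.997), with a limma adjusted p of 0.995 for each. MLLT3 was thus above LD in HD animals and below HD in VHD animals, and both comparisons use the same HD animals. In BD animals, beside SIRT2, SETD1A, an H3K4 methyltransferase, had a fold of 1.28 (1.01 to 1.61), ARID4A 0.877 (0.748 to 1.03) and SETDB2 0.880 (0.747 to 1.04), with a limma adjusted p of 1.0.

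For the trend over categories, SETD7 had a fold per step of 1.09 (1.03 to 1.16) and the BAF subunit SMARCC2 1.04 (1.01 to 1.08). The means of SMARCC2 were 4461 ± 371 normalized reads for 10 LD, 4652 ± 304 for 5 BD, 4794 ± 218 for 7 HD and 4936 ± 259 for 6 VHD animals (SD), each step smaller than 1 SD. SIRT6 had a fold per step of 0.940 (0.881 to 1.0) and SMARCA1, an ISWI motor, 0.965 (0.920 to 1.01), and the limma adjusted p of all 4 was 0.950.

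Category means of genes often discussed in addiction research lay within about 1 SD of each other. For HDAC2 the mean was 1778 ± 164 normalized reads for LD, 1765 ± 94.6 for BD, 1817 ± 125 for HD and 1689 ± 152 for VHD animals (SD; n = 10, 5, 7 and 6). For DNMT1 they were 1299 ± 134, 1298 ± 78.5, 1361 ± 104 and 1293 ± 136 in the same order. HDAC1 was at 243 ± 27.1, 234 ± 68.1, 234 ± 66.7 and 259 ± 24.4, and HDAC5 at 3630 ± 617, 3886 ± 496, 3859 ± 412 and 3680 ± 474. TET2 was at 1065 ± 263, 922 ± 179, 1099 ± 312 and 1075 ± 136. KDM6B ran from 157 ± 52.9 in LD to 206 ± 42.3 in HD animals. EZH2, low throughout, was at 44.8 ± 8.76, 49.2 ± 23.2, 46.6 ± 12.1 and 34.1 ± 13.1.

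Cohorts differ in age and could differ in handling, which cannot be told apart. In an F test over the 4 cohorts with category as a term, 9 members had an unadjusted p under 0.05 (10.7%; all genes 9.41%) and the lowest limma adjusted p was 0.330, for SMARCA4, HDAC4 and KDM2B. With 1 library left out the count ran from 6 (LD replicate 8) to 15 (LD replicate 2), and it was 7 without HD replicate 1. It was 14 without the 3 shallowest libraries and 14 with the 3 marker scores as terms (16.7%, all genes 11%). In the same test 5 of 6 striatal and 3 of 3 GABAergic markers had an unadjusted p under 0.05, and the summed GABAergic level ran from 7169 to 19822 normalized reads in cohort 7a and from 17918 to 20192 in cohort 7b. The part of the striatal markers in the cohort results was not tested beyond the fit with marker scores. That of the GABAergic markers, which are not in that fit, was not tested. SMARCA4, the BAF motor also known as BRG1, was at 3055 ± 474 normalized reads in cohort 4 (n = 8), 3680 ± 263 in cohort 5 (n = 7), 3541 ± 169 in cohort 7a (n = 8) and 3800 ± 293 in cohort 7b (n = 5). Cohort 4 ranged from 2392 to 3870 and overlapped the other cohorts. Without LD replicate 2 the F test called SMARCA4 (limma adjusted p = 0.0386) among 40 genes. The next by p were BRD3, SETD1A, BRD9, KDM4B and HDAC10, with limma adjusted p from 0.394 to 0.513.

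Between cohort 4, the oldest by label, and cohort 7a, the youngest, SMARCA4 had a fold of 0.828 (0.735 to 0.933), HDAC4, a class IIa deacetylase, 0.872 (0.778 to 0.976), the H3K36 demethylase KDM2B 0.834 (0.716 to 0.971) and BRD2 0.893 (0.809 to 0.985). On the higher side in cohort 4 were MLLT10 at 1.43 (1.10 to 1.87), BRD8 at 1.12 (1.03 to 1.23), MLLT3 at 1.19 (1.04 to 1.37) and SMARCAL1 at 1.26 (1.05 to 1.50), and the limma adjusted p of the 8 genes lay between 0.363 and 0.461. MLLT10 rested on 2 libraries. LD replicate 1 was at 1497 and HD replicate 1 at 1246 normalized reads, while the other 26 animals lay between 426 and 747. Without the 3 shallowest libraries the fold of MLLT10 was 1.06, and that of SMARCA4 0.887.

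Of 102 related genes outside the symbol rule, 85 were tested, and none passed the threshold by limma. They cover histone writers, Polycomb, corepressors, readers and removal of methylated cytosine, SWI/SNF partners, other remodelers and demethylases with other symbols. At an unadjusted p under 0.05 there were 6 in heavy against low drinkers (4 higher; 7.06%, all genes 4.18%), 6 in VHD against LD (3 higher; 7.06%, all genes 8.57%) and 8 in VHD against HD (5 higher; 9.41%, all genes 15.6%). The lowest fold was that of BCL11B, a BAF partner and transcription factor of striatal-type neurons. It was 0.406 (0.271 to 0.608) in VHD against HD (limma adjusted p = 0.0983). There 5 of 6 striatal markers were also lower, at a median log2 difference of -0.27, and none had an unadjusted p under 0.05. The neuronal BAF subunit ACTL6B had a fold of 0.835 (0.713 to 0.978) in heavy against low drinkers, and the corepressor NCOR1, the partner of HDAC3, 1.17 (1.04 to 1.32), both with a limma adjusted p of 0.998. In heavy drinkers 51 of the 85 were on the higher side, with a median log2 difference of 0.03. By list, the higher side held 9 of 9 other remodelers (median 0.10), 4 of 4 demethylases (0.13), 7 of 9 corepressors (0.06), 12 of 19 writers (0.03), 8 of 15 readers and removers of methylated cytosine (0.03), 8 of 18 Polycomb genes (-0.01) and 3 of 11 SWI/SNF partners (-0.11).

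Relative exon use, the level of an exon against the rest of its gene, was tested in 78 members with at least 3 measured exons, 1536 exons in all. By the F test of limma's diffSplice no member passed in heavy against low drinkers (0.0917% of 9817 genes did) or in cohort 4 against cohort 7a (0.122%). An unadjusted p under 0.05 was reached by 1 member, HDAC6 (1.28%; all genes 1.73%), and by 2, SMARCB1 and ARID5B (2.56%; all genes 2.94%). SMARCC2, SETD9 and TET3 came next in the former and CHD1 and SMARCA4 in the latter, each with an adjusted p of 1.0.

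A Simes test, which looks for a single exon, called SMARCC2 (adjusted p = 0.00325) and CHD1 (adjusted p = 0.00899) in heavy against low drinkers and CHD1 in the cohorts (adjusted p = 0.0178). All genes called came to 1.05% and 1.52% of 9817. The CHD1 exon in the cohort comparison, 52 bases on chromosome 5 from 95608615 to 95608666 in the exon table's coordinates, held only 0 to 20 normalized reads in cohort 4. In SMARCC2 the exon was the 23rd of 29 by coordinate, 70 bases on chromosome 12 from 54428474 to 54428543, and it was singled out after its values were seen. Its log2 difference from the rest of the gene was -0.57 (limma adjusted p = 0.00135).

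The SMARCC2 exon split the libraries. It took 2.65% ± 0.304 of the gene's reads in low drinkers (2.14% to 3.30%, n = 15) and 2.296% ± 0.759 in heavy drinkers (1.19% to 3.28%, n = 13). The 5 libraries from 1.19% to 1.63% were HD replicates 1, 3 and 7 and VHD replicates 4 and 5, from all 4 cohorts, and the other 8 heavy animals lay within the range of the low drinkers. The heavy minus low difference was -1.51 percentage points in cohort 4 and -1.42 in cohort 7b, each with 1 heavy animal, and -0.07 in cohort 7a. Without HD replicate 1 the exon's log2 difference was -0.36 and its limma adjusted p was 1.0, and without HD replicate 7 these were -0.43 and 0.283. The Simes call of CHD1 was lost without HD replicate 1 in both comparisons (adjusted p = 0.999 and 0.997) and, in the cohorts, without HD replicate 6 (0.0626). Without the 3 shallowest libraries the Simes test called BRD8 instead of SMARCC2 and CHD1, and in the cohorts ARID4B and SMARCA4 instead of CHD1.

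**Figure D5:**
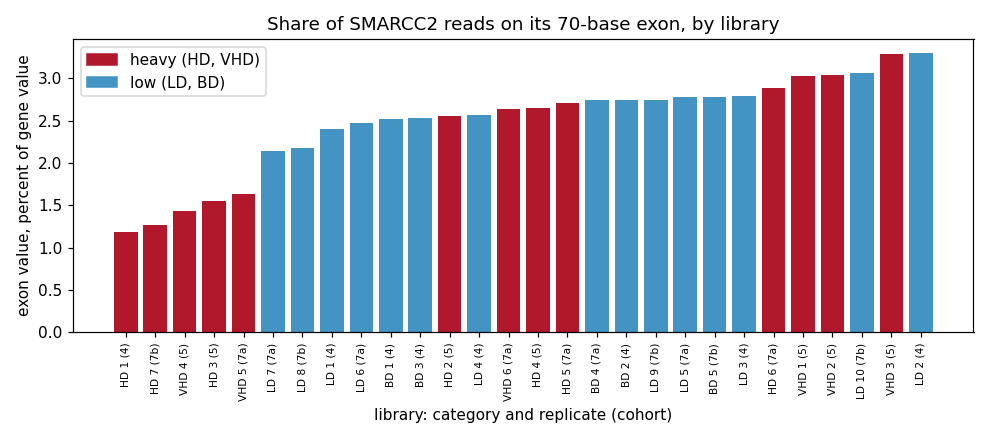
Share of the SMARCC2 gene value that fell on its 70-base exon, in percent, in each of 28 libraries ordered by that share; red bars are heavy and blue bars low drinkers, with the cohort in brackets. The 5 lowest bars, 1.19% to 1.63%, are heavy drinkers, and the next is at 2.14%.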

How the data were processed

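RNA from 28 animals was read as stranded, rRNA-depleted libraries, per the labels' protocols. CASAVA, FastQC, STAR 2.3.0e and edgeR are named in the submitters' processing notes; the genome build, the annotation and the strand of counting are not stated there. In the deposited gene table each value is a signal: the authors multiplied the reads on a gene's exons by an upper-quartile factor of the library. The deposited exon values, here called a score, were made likewise by the authors and then rounded. Each table has 30 columns, of which 2 match no labelled sample and were not used here. Of the gene values, 100.0% were within 0.02 of a whole read, so reads were recovered for edgeR 4.0.16 (quasi-likelihood) and DESeq2 1.42.0.

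Genes with at least 10 in at least 5 libraries (13022) were fitted with limma 3.58.1 in R 4.3.3 on log2(value + 1), with a mean-variance trend and cohort (for cohorts, category) as a term. Folds are on that scale, which understates changes of low genes. p-values were two-sided, Benjamini-Hochberg adjusted over all genes, with a threshold of 0.05. Relative exon use was tested with diffSplice on exons passing the same limit. Correlations used 100000 permutations. Each animal gave 1 library, and the labels tie none to a litter.

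The members, lists and tests were chosen with earlier results of these data known. Named members are the 4 (or 2) with the smallest p per direction and comparison, the 8 with the smallest p over cohorts, 4 per exon comparison, the highest, lowest and most variable of each family, and 17 of 22 genes listed by name, of which 1 is not reported here. Of the 84 symbols, 82 matched the RefSeq gene list, and MLL5 and MLLT4 did not. Alternatives were pseudocounts of 0.5 and 8, no filter and a filter of 50, scaling to the library total, edgeR, DESeq2, no cohort term, age for cohort, 3 marker scores as terms, cohort 7a alone, without the 3 shallowest libraries, and each library left out in turn. On simulated reads limma made 6 false calls over 13022 genes. Exons were simulated in 2000 genes, with 1 exon per altered gene lowered 2-fold in heavy drinkers. The F test called 26.0% of altered genes and Simes 50%, with 2 and 4 false calls. The simulated exons held no differences between cohorts, so these rates need not hold for the real blocks.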

Additional observations from a re-analysis of the deposited data

Results flagged for a closer look

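Within each drinking category the highest and lowest animal were compared with the rest by Dixon's test for 44 named members (176 groups) and for the share of the SMARCC2 exon (4 groups), where chance gives about 1 in 20. A single animal stood apart in 15 groups, 11 of them in 2 shallow libraries of cohort 4. HD replicate 1 stood apart with high normalized reads for ARID4A (2297), BRD8 (2366), CHD1 (1457) and CHD9 (6494) and with low ones for KDM4B (394) and SMARCA4 (2392). LD replicate 1 stood apart with high values for BRD8 (2242), CHD1 (1409), CHD9 (6120), MLLT10 (1497) and SMARCAL1 (370.3). BRD8, CHD1 and CHD9 were thus high in both animals, 1 heavy and 1 low drinker.

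The other 4 were spread over 4 libraries. LD replicate 3 was lowest in its category for HDAC10 (50.8), BD replicate 1 for SMARCC2 (4121), and BD replicate 2 was highest for SMARCA2 (7169) and VHD replicate 4 for EZH1 (2237).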

How the results depend on the processing

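Across 28 libraries left out in turn and 18 other settings, 369 of 375 counts of members called stayed the same, and 258 of 274 medians over the members and 1715 of 1724 values of single named members kept their sign and, for the latter, their side of the threshold. The other 16 medians changed sign, in VHD against HD (8), BD against LD (4) and cohort 4 against 7a (4), and, apart from 0.10 in cohort 7a alone, reached at most 0.04 in size. No member was called for heavy against low, VHD, HD or BD against LD, the trend or cohort 4 against 7a under any setting run. The counts of members called were 0 in the main fits, so a count that stays at 0 says little about stability. With 1 library left out, the count at an unadjusted p under 0.05 (limma) for heavy against low ran from 0 to 13. Leaving out an animal of cohort 5 cannot move that difference. The number called for VHD against HD was 2 by DESeq2 and 0 to 3 with 1 library left out, and over cohorts 0 to 1. The Simes test called 2 and 1 members for exon use, and 0 to 3 and 0 to 4 with 1 library left out, a setting chosen after seeing the data. In cohort 7a alone the members' median log2 difference for VHD against HD was 0.10. The VHD against HD log2 difference of HDAC6 was -0.00582 with 3 marker scores as terms, and that of CHD3 against LD was 0.00503 in cohort 7a alone. For SIRT2 with MBP, r was 0.468 in cohort 4 and 0.382 in cohort 7a. The other relations, near 0, changed sign for HDAC1 with HDAC2 (0.265 scaled to library total, 0.055 without the 2 farthest animals, 0.136 in cohort 4), EZH1 with EZH2 (0.114 in cohort 5) and SMARCA2 with SMARCA4 (0.063 in cohort 4, 0.125 in cohort 5). Where settings differ, the cause was not tested. No paired analysis was possible because replicate numbers only name samples in accession order and tie no animals across categories. Depth limits EZH2, DNMT3B, KDM4D and KDM4E most, since 3 reads came to as many as 24.1 normalized reads.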
